A study of Homo sapiens with 6 samples.

Results

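The CEACAM genes measured here are 5 of the 27434 gene rows in each file: CEACAM1 (Entrez Gene 634), CEACAM5 (1048), CEACAM6 (4680), CEACAM7 (1087) and CEACAM19 (56971). The family was chosen by the lower expected counts of CEACAM5 in the siHOXB-AS3 libraries than in the siNT libraries, so for these 5 genes values from the siHOXB-AS3 libraries are given as descriptions with no p-value, and calls as counts only. RNA-seq was done on HT-29, an established human colorectal adenocarcinoma line, 48 h after transfection with a pool of siRNAs against the lncRNA HOXA-AS3 (siHOXA-AS3), a pool against the lncRNA HOXB-AS3 (siHOXB-AS3) or a non-targeting pool (siNT). The labels give 10 nM siRNA for every group, the study's methods give another dose, and all groups share the cell line and the transfection. There are 2 libraries per group and 6 in all. The labels number these as replicates without saying whether they came from separate cultures, so p-values measure only the spread between these libraries, which may be technical.

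CEACAM proteins are members of the immunoglobulin superfamily that bind one another across neighbouring cells. CEACAM5, the carcinoembryonic antigen used as a serum marker of colorectal cancer, CEACAM6 and CEACAM7 are held on the apical surface of colon epithelium by a glycosylphosphatidylinositol (GPI) anchor. CEACAM1 spans the membrane and, in its long form, carries inhibitory tyrosine motifs that recruit the phosphatases SHP-1 and SHP-2. CEACAM19 is a less studied transmembrane member. The genes lie on the long arm of chromosome 19, where several arose by duplication.

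Promoters are shown because the 4 windows at hand align over most of their length, with 72% to 84.7% of the aligned bases identical. The motifs marked below are among the many places where they differ. RefSeq windows of 300 bases around the gene start (GRCh38.p14) were given for 4 of the 5 members, CEACAM1, CEACAM5, CEACAM6 and CEACAM7. They are printed on the strand of the gene, with capitals marking the palindromic E-box CACGTG, which the factors USF1 and USF2 bind, and the GC box GGGCGG, which SP1 binds, searched on both strands. The windows are chr19:41708376-41708675 (plus strand) for CEACAM5, chr19:41755280-41755579 (plus strand) for CEACAM6, chr19:41688221-41688520 (minus strand) for CEACAM7 and chr19:42528432-42528731 (minus strand) for CEACAM1.
CEACAM5: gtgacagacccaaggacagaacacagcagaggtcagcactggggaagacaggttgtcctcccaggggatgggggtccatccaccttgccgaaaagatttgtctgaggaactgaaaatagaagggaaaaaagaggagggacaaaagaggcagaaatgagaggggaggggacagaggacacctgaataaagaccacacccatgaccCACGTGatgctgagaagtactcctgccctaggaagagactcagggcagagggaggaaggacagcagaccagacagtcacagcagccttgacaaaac
CEACAM6: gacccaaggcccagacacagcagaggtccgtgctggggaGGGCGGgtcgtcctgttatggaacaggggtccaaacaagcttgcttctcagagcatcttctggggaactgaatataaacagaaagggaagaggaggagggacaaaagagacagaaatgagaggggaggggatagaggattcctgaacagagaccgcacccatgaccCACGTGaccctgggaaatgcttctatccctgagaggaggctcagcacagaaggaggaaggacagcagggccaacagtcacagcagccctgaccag
CEACAM7: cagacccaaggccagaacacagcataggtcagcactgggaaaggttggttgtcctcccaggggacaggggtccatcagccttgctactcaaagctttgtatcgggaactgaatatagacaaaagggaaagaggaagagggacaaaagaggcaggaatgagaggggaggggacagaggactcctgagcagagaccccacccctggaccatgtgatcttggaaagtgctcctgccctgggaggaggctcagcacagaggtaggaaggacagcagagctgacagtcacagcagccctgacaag
CEACAM1: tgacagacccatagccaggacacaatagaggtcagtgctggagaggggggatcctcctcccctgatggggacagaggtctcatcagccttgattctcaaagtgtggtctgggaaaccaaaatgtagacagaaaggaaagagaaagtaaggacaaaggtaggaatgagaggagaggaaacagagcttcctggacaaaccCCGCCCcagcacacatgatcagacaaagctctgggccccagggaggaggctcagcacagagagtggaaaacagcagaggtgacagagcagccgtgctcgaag

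The E-box occurred once in the window of CEACAM5 and once in that of CEACAM6, and no match was found in those of CEACAM1 and CEACAM7. Of 35116 RefSeq windows of this length, 7.26% held it. The GC box occurred once in the windows of CEACAM6 and CEACAM1, against 45% of all windows. The CDX motif CCATAAA, held by 2.54% of all windows, was found in none of the 4. Identity over the aligned bases was 84.7% between CEACAM5 and CEACAM7, 81.5% between CEACAM6 and CEACAM7, 78.8% between CEACAM5 and CEACAM6, and 72% to 77.1% between CEACAM1 and the others. A match is a description of these letters and no evidence of binding.

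The antisense strands of the HOXB-AS3 pool are shown to compare them with the members' transcripts, with bases 2 to 8 (the seed) in capitals.
siHOXB-AS3 1: aCUUUGUCucccuuugucg
siHOXB-AS3 2: uUUCUUUCaugcccgacuc
siHOXB-AS3 3: uUUCCCUUcaccccuugac

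Each sense strand of this pool was found whole in 2 to 8 of the 15 HOXB-AS3 transcripts of GENCODE 29. The longest exact run that either strand shared with any transcript of the 5 members was 9 bases. In the longest coding transcript of CEACAM5 no seed match was found, in that of CEACAM6 there was 1, to the third strand, and in that of CEACAM7 there was 1, to the same strand. CEACAM1 and CEACAM19 each had 1 match to the second strand. Of all coding genes, 26.3% to 41% had a match to a given one of these seeds.

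The expected counts summed to between 15998518 and 26263938 per library. The targeted HOXB-AS3 was at 303 and 213 expected counts with siNT and at 67 and 76 with siHOXB-AS3, a log2 fold change of -1.96 (SE 0.248, edgeR adjusted p = 0.0678). HOXA-AS3 had 38 and 18 counts in siNT and 12 and 12 in siHOXA-AS3, a log2 fold change of -1.09 (SE 0.403, edgeR adjusted p = 0.711). Replicates differed most in siHOXA-AS3, where the log2 difference had an SD of 0.726 over genes, against 0.425 in siNT and 0.371 in siHOXB-AS3. In siHOXA-AS3 this difference, replicate 1 minus replicate 2, rose with the GC content of the transcript (Pearson r = 0.749, Spearman rho = 0.794, across genes, which are not independent replicates). In siNT it fell with GC content (Pearson r = -0.425, Spearman rho = -0.568), and in siHOXB-AS3 it rose less (Pearson r = 0.149, Spearman rho = 0.227). The members' transcripts had GC contents of 44.6% (CEACAM7), 46.3% (CEACAM6), 47.2% (CEACAM1), 49.5% (CEACAM5) and 54.2% (CEACAM19).

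In control cells CEACAM5, CEACAM6 and CEACAM1 were well expressed and CEACAM19 and CEACAM7 were low. Levels are given as FPKM, fragments scaled by gene length and library size, so that genes can be compared with each other. The mean siNT level was 94.3 ± 2.08 FPKM for CEACAM5, 83.5 ± 0.488 for CEACAM6 and 52.1 ± 2.98 for CEACAM1 (SD, n = 2), which placed them at ranks 851, 960 and 1461 of the 13034 genes tested. CEACAM19 had 1.39 ± 0.0919 FPKM and CEACAM7 0.83 ± 0.198 FPKM (SD, n = 2). The siNT libraries kept this order without overlap between neighbouring members.

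**Figure D1:**
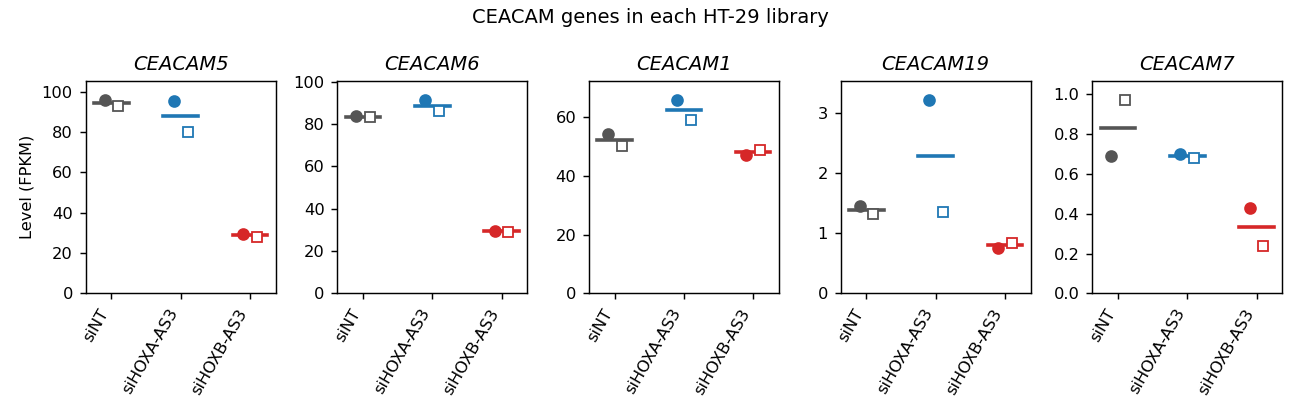
FPKM of each CEACAM gene (vertical axis from 0, scaled per gene) in siNT, siHOXA-AS3 and siHOXB-AS3, with a circle for replicate 1, a square for replicate 2 and a line for their mean. CEACAM5 and CEACAM6 stood between 28.1 and 29.7 FPKM in the siHOXB-AS3 libraries and between 80.1 and 95.8 FPKM in all others.

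CEACAM5 had 95.8 and 92.8 FPKM in siNT, 95.7 and 80.1 FPKM in siHOXA-AS3 and 29.7 and 28.1 FPKM in siHOXB-AS3. CEACAM6 had 83.8 and 83.1 FPKM in siNT, 91.2 and 86.3 FPKM in siHOXA-AS3 and 29.7 and 28.9 FPKM in siHOXB-AS3. For both genes the siHOXB-AS3 libraries lay far below the other 4, and the replicates of siHOXB-AS3 were close together. In siHOXB-AS3 against siNT the log2 fold change was -1.63 (SE 0.154) for CEACAM5, a level 3.1-fold lower, and -1.46 (SE 0.147) for CEACAM6, a level 2.76-fold lower. Among the 13034 genes tested, ordered from the most negative log2 fold change, CEACAM5 was number 122 and CEACAM6 number 187. In bulk RNA, fewer cells expressing a gene and less of its RNA per cell cannot be told apart.

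CEACAM1, the transmembrane member, had 54.2 and 50.01 FPKM in siNT, 65.5 and 58.8 FPKM in siHOXA-AS3 and 47.1 and 48.7 FPKM in siHOXB-AS3. The siHOXB-AS3 libraries were the lowest, by little, with a log2 fold change against siNT of -0.079 (SE 0.149), smaller than its error. CEACAM7, the other GPI-anchored member, had 41 and 35 expected counts in siNT, 37 and 26 in siHOXA-AS3 and 24 and 12 in siHOXB-AS3. Its log2 fold change in siHOXB-AS3 against siNT was -1.23 (SE 0.404), and the siHOXB-AS3 libraries themselves stood at 0.43 and 0.24 FPKM. CEACAM19 had 1.45 and 1.32 FPKM in siNT, 3.21 and 1.35 FPKM in siHOXA-AS3 and 0.76 and 0.84 FPKM in siHOXB-AS3, a log2 fold change of -0.75 (SE 0.434) in siHOXB-AS3 against siNT.

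**Figure D2:**
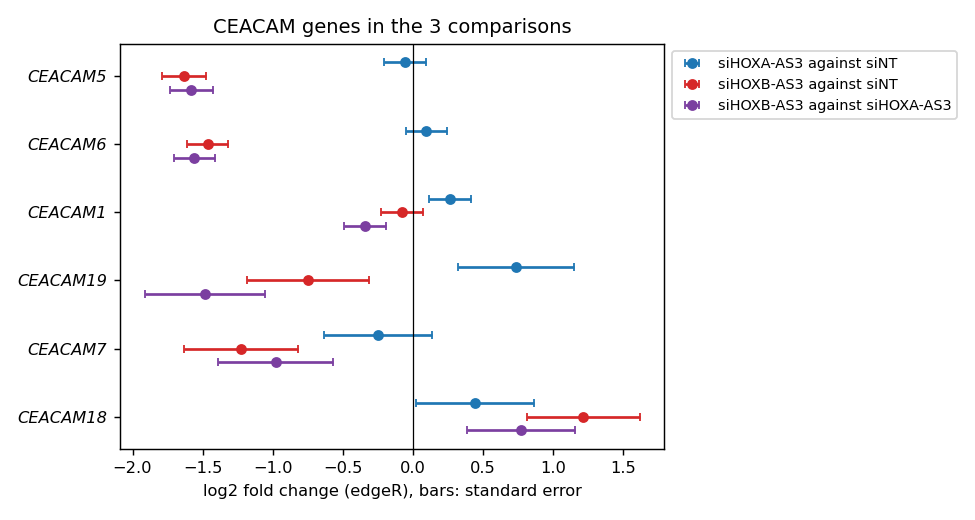
Log2 fold change (horizontal axis) of each CEACAM gene, and of CEACAM18 as another family gene that passed the count filter, in the 3 comparisons, with bars for the standard error from edgeR. The siHOXB-AS3 points of CEACAM5 and CEACAM6 lie between -1.63 and -1.46, that of CEACAM1 at -0.079 and that of CEACAM18 at 1.22.

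All 5 members passed the filter on low counts. In siHOXB-AS3 against siNT, 2 of the 5 members, CEACAM5 and CEACAM6, were called lower by edgeR (quasi-likelihood test, Benjamini-Hochberg adjusted p under 0.05), beside 0.0307% of all genes tested, and none was called higher. The FPKM of the siHOXB-AS3 libraries lay below both siNT libraries for 5 of 5 members, beside 34.6% of all genes. Both counts come from the comparison that chose the family and nothing is read from them. The calls of CEACAM5 and CEACAM6 were lost on leaving out any siNT or siHOXB-AS3 library, where fewer of all genes were called too. Leaving out a siHOXA-AS3 library raised the number of calls among the members and among all genes. The log2 fold change itself stayed between -1.70 and -1.58 for CEACAM5 and between -1.51 and -1.44 for CEACAM6 over 18 alternative settings. Over the same settings it ran from -0.82 to -0.41 for CEACAM19 and from -0.13 to -0.027 for CEACAM1. For CEACAM7 it ran from -1.70 to -0.45 over 17 settings. The weakest values of CEACAM7 and CEACAM19 came with limma on log2(FPKM + 1).

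The lower levels of CEACAM5 and CEACAM6 changed the make-up of the family within a library. The 5 genes together had 236 and 228 FPKM in siNT, 256 and 227 FPKM in siHOXA-AS3 and 108 and 107 FPKM in siHOXB-AS3. CEACAM1 made up 23% and 21.9% of this sum in siNT, 25.6% and 25.9% in siHOXA-AS3, and 43.7% and 45.6% in siHOXB-AS3. The ratio of CEACAM1 to CEACAM5 was 0.566 and 0.539 in siNT, 0.685 and 0.734 in siHOXA-AS3 and 1.58 and 1.73 in siHOXB-AS3. CEACAM1 was thus the most abundant of the 5 in the siHOXB-AS3 libraries and the third in the others. The ratio of CEACAM5 to CEACAM6 moved little, from 1.14 and 1.12 in siNT to 1.05 and 0.928 in siHOXA-AS3 and 1 and 0.975 in siHOXB-AS3, and the levels of these 2 genes overlapped in both knockdown groups.

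**Figure D3:**
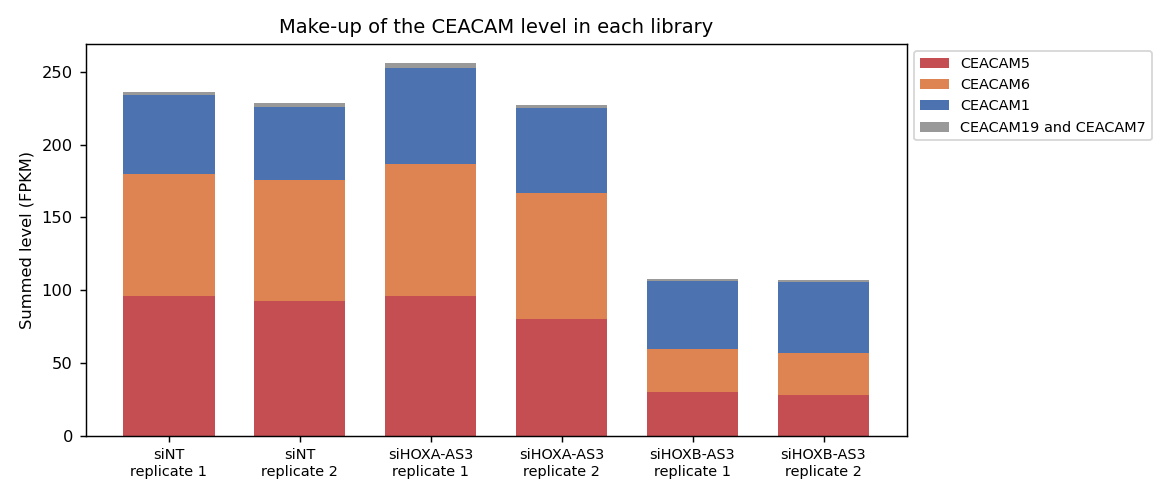
Summed FPKM of the 5 CEACAM genes in each library (vertical axis from 0), stacked by gene. The siHOXB-AS3 bars reach 108 and 107 FPKM and the other 4 at least 227 FPKM, while the CEACAM1 block keeps between 47.1 and 65.5 FPKM.

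Against the siHOXA-AS3 libraries, which received an siRNA pool to another lncRNA, the siHOXB-AS3 libraries were again lower for CEACAM5, with a log2 fold change of -1.58 (SE 0.154), and for CEACAM6, with -1.56 (SE 0.147). CEACAM19 had -1.48 (SE 0.428), CEACAM7 -0.98 (SE 0.408) and CEACAM1 -0.34 (SE 0.149). This comparison uses the same siHOXB-AS3 libraries, so it is no second observation of the difference. CEACAM5 and CEACAM6 were called lower, 2 of 5 members beside 0.936% of all genes, and the libraries of 5 of 5 members did not overlap, beside 24.1% of all genes. No member was called with only the 4 libraries of the groups compared in the fit, where 2 of 12813 genes were called. The calls of CEACAM5 and CEACAM6 were also lost on leaving out any siNT or siHOXB-AS3 library, where fewer of all genes were called too. Leaving out siHOXA-AS3 replicate 2 raised the number of calls among the members and among all genes. Without siHOXA-AS3 replicate 1 the log2 fold change of CEACAM19 was -0.72, and without replicate 2 it was -1.97.

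The siHOXA-AS3 comparison with siNT is the one whose treated libraries did not choose the family, though it shares the siNT libraries with the first. None of the 5 members was called by edgeR's quasi-likelihood test, none had an unadjusted p under 0.05 and none was called by DESeq2, beside 0% of all 13034 genes called by edgeR, 803 genes with an unadjusted p under 0.05 and 51 genes called by DESeq2. CEACAM5 had a log2 fold change of -0.053 (SE 0.150, edgeR adjusted p = 0.997) and CEACAM6 of 0.097 (SE 0.144, edgeR adjusted p = 0.997). CEACAM1 had 0.26 (SE 0.149, edgeR adjusted p = 0.910), with both siHOXA-AS3 libraries above both siNT libraries. The same held for CEACAM6, which makes 2 of 5 members, beside 11.9% of all genes. CEACAM7 had -0.25 (SE 0.385, edgeR adjusted p = 0.997).

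CEACAM19 had the largest value of the 5 members in siHOXA-AS3 against siNT, 0.73 (SE 0.415, edgeR adjusted p = 0.910), and 1 library decided it. Replicate 1 held 160 expected counts and replicate 2 held 49, against 81 and 45 in siNT. Without siHOXA-AS3 replicate 1 the log2 fold change was -0.028, and without replicate 2 it was 1.22. CEACAM19 has the highest GC content of the members, and with a GC trend removed per library the value was 0.74 (edgeR adjusted p = 0.219). The part of GC content in the gap between these 2 libraries was not tested for this gene. The log2 fold change of CEACAM1, 0.26 with all libraries, rose to 0.34 when siHOXA-AS3 replicate 2 was dropped. It fell to 0.19 when replicate 1 was dropped instead. Each of these fits keeps 1 siHOXA-AS3 library, so effect sizes alone are given here.

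RSEM also gives a gene length per library, weighted by the isoforms it assigns reads to. It was 2601 bases for CEACAM6 and 2379 bases for CEACAM7 in every library. For CEACAM5 it was 2638 and 2586 bases in siNT, 2607 and 2773 in siHOXA-AS3 and 2674 and 2634 in siHOXB-AS3, so the groups overlapped. CEACAM1, whose long and short forms differ in the cytoplasmic tail, had 3474 and 3475 bases in siNT, 3469 and 3477 in siHOXA-AS3 and 3471 and 3457 in siHOXB-AS3. Both siHOXB-AS3 lengths of CEACAM1 lay below both siNT lengths and the siHOXA-AS3 lengths overlapped the other groups. For CEACAM5 the length thus varied by less than the level did, and TPM and TMM-scaled CPM in place of FPKM gave the same order of the groups.

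Reads shared between similar genes could bear on these values. In windows of 50 bases, 4.56% of the longest coding transcript of CEACAM6, 3.26% of that of CEACAM5 and 2.94% of that of CEACAM1 were found exactly in another CEACAM or PSG transcript. No window of CEACAM7 or CEACAM19 was, and none of 100 bases was for any member. CEACAM5 and CEACAM6 shared 90.1% of 1072 aligned bases. The part of shared reads in the parallel levels of the pair was not tested.

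Of the 8 other CEACAM genes looked up, 1 passed the count filter. CEACAM18 had 13 and 13 expected counts in siNT, 21 and 14 in siHOXA-AS3 and 36 and 31 in siHOXB-AS3. It lay higher in both siHOXB-AS3 libraries, opposite to the members, with a log2 fold change of 1.22 (SE 0.401, edgeR adjusted p = 0.282) that did not pass the test. CEACAM8, a granulocyte antigen, had between 5.65 and 10.9 expected counts in the 6 libraries, and the pseudogene CEACAM22P between 0.88 and 7.21. CEACAM3 had at most 1.09, CEACAM16 and CEACAM20 had at most 1, and CEACAM4 and CEACAM21 had 0 in all 6 libraries. The 11 pregnancy-specific glycoprotein (PSG) genes, the placental branch of the family, had at most 1 count in any library.

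In the order of the RefSeq table, CEACAM7, CEACAM5 and CEACAM6 are direct neighbours, with no gene between them. The nearest tested genes outside this run were DMAC2, with 14 genes between, and RPS19, with 6. In siHOXB-AS3 against siNT, DMAC2 had a log2 fold change of 0.12 (SE 0.304, edgeR adjusted p = 0.925) and RPS19 of 0.14 (SE 0.272, edgeR adjusted p = 0.893). CEACAM1 lies apart, and its nearest tested genes were the chemokine CXCL17, with 2 genes between, and LYPD3, with 34. CXCL17 had -1.48 (SE 0.561, edgeR adjusted p = 0.346) and LYPD3 had -0.39 (SE 0.544, edgeR adjusted p = 0.844). Both were low in every library, with at most 2.02 FPKM for CXCL17 and 0.94 FPKM for LYPD3. CEACAM19 lies between PVR, itself an immunoglobulin-fold adhesion receptor, with 0.55 (SE 0.164, edgeR adjusted p = 0.243), and BCL3 with 0.090 (SE 0.249, edgeR adjusted p = 0.934). None of these genes was called in the 3 comparisons.

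The genes whose log2 CPM was most like that of a member over the 6 libraries were taken from up to 1036 tested genes that averaged at least 1 FPKM and varied with an SD of at least 0.5. With 3 groups of 2 libraries, a high r mostly says that a gene differs in the same group, and no p is given. CEACAM5 was most like ERBB3, a receptor of the EGF receptor family (r = 0.998, n = 6), CEACAM6 (r = 0.996) and the pseudogene PRKXP1 (r = 0.995). CEACAM6 was most like VASP, an actin filament regulator (r = 0.997), CEACAM5 (r = 0.996) and M6PR, the mannose 6-phosphate receptor (r = 0.995). ERBB3 had 35.0 and 34.3 FPKM in siNT and 13.1 and 12.9 FPKM in siHOXB-AS3, and VASP 142 and 154 against 69.7 and 70.7 FPKM.

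**Figure D4:**
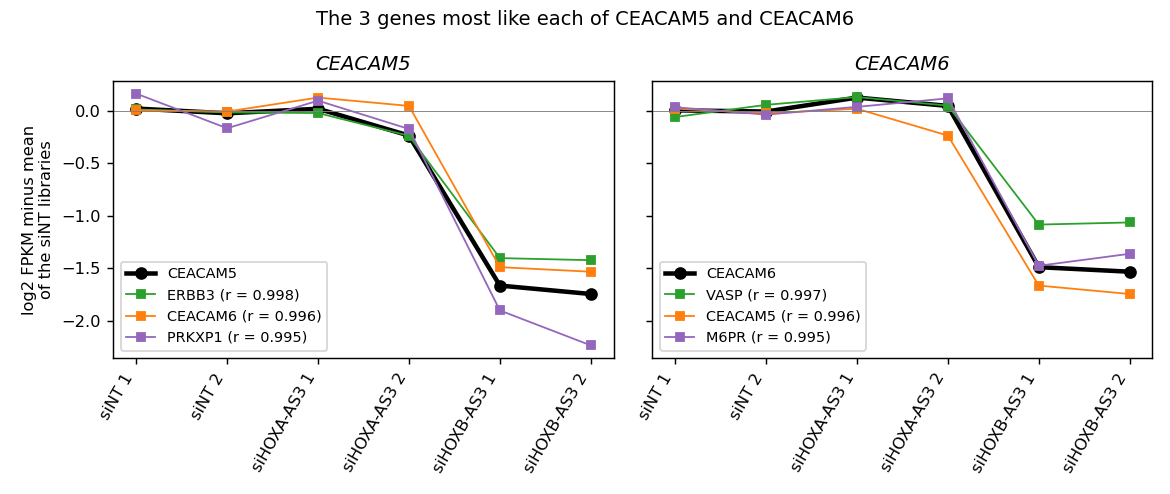
Log2 FPKM minus the mean of the siNT libraries (vertical axis) in each of the 6 libraries for CEACAM5 and CEACAM6 (black) and the 3 genes most like each, with Pearson r of log2 CPM in the legend. All lines are near 0 in the siNT and siHOXA-AS3 libraries and lower in both siHOXB-AS3 libraries.

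The other members were most like other genes. CEACAM1 was most like MYADM (r = 0.974), TMEM176B (r = 0.973) and HOMER3 (r = 0.971), genes highest in the siHOXA-AS3 libraries. CEACAM19 was most like PTMS (r = 0.995), ADAM8 (r = 0.995) and TSHZ1 (r = 0.985), each highest in siHOXA-AS3 replicate 1. CEACAM7, with its few counts, was most like SUMF1 (r = 0.969), PPP1R14B-AS1 (r = 0.968) and GIHCG (r = 0.967). Between members, r was 0.996 for CEACAM5 with CEACAM6, 0.896 for CEACAM5 with CEACAM7 and 0.631 for CEACAM5 with CEACAM1 (n = 6).

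Of the 13 factors listed as known to act on CEACAM promoters, 12 were tested and none was called in any of the 3 comparisons by edgeR. At an unadjusted p under 0.05 there was 1 in siHOXA-AS3 against siNT, 1 in siHOXB-AS3 against siNT and 3 in siHOXB-AS3 against siHOXA-AS3, beside 6.16%, 12.2% and 18.4% of all genes. DESeq2 called 0, 0 and 1 of these factors, beside 51, 347 and 792 of 13034 genes. Their median log2 fold change in siHOXB-AS3 against siNT was -0.079, beside -0.0056 for all genes. USF1 had 8.14 and 8.39 FPKM in siNT and 7.48 and 6.58 FPKM in siHOXB-AS3, a log2 fold change of -0.18 (SE 0.268, edgeR adjusted p = 0.852). USF2 had 55.6 and 50.4 against 43.6 and 47.1 FPKM, -0.18 (SE 0.219, edgeR adjusted p = 0.818). SP1 had 32.7 and 31.7 against 25.5 and 24.4 FPKM, -0.32 (SE 0.140, edgeR adjusted p = 0.428). SOX9, a factor of intestinal crypts, was at the low end with -0.52 (SE 0.159, edgeR adjusted p = 0.253), with HNF4A at -0.43 (SE 0.222, edgeR adjusted p = 0.510). SMAD3 with 0.26 and SP3 with 0.092 were at the high end.

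CEACAM5, CEACAM6 and CEACAM7 need the GPI anchor to reach the surface. All 29 genes of GPI anchor synthesis passed the filter and none was called in siHOXB-AS3 against siNT by edgeR or DESeq2 or had an unadjusted p under 0.05, with a median of 0.12. PIGN had 0.46 (SE 0.25) and PIGA 0.43 (SE 0.237) at one end, PIGZ -0.59 (SE 0.393) and PIGQ -0.21 (SE 0.349) at the other. Of 40 other GPI-anchored proteins 22 were tested, with a median of -0.22 in siHOXB-AS3 against siNT. There edgeR called none of them, while 5 had an unadjusted p under 0.05, beside 12.2% of all genes. DESeq2 called 2, beside 347 of 13034 genes. The values of this list lay on both sides of 0, with 15 of the 22 negative. CD55, which blocks complement, had 54.8 and 52.2 FPKM in siNT and 89.1 and 112 FPKM in siHOXB-AS3, and NT5E, the ecto-5′-nucleotidase CD73, had 31.4 and 32.4 against 15.3 and 13.7 FPKM. The log2 fold change was 0.95 for CD55 (SE 0.222, edgeR adjusted p = 0.160), 0.90 for DPEP1 (SE 0.343), -1.09 for NT5E (SE 0.209, edgeR adjusted p = 0.114) and -0.97 for EFNA2 (SE 0.296). NT5E was the 1 gene of this list that edgeR called lower in siHOXB-AS3 against siHOXA-AS3, beside 0.936% of all genes, with -1.30 (SE 0.210, edgeR adjusted p = 0.0434). DESeq2 called 3 of the list there, beside 792 of 13034 genes.

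Of 30 genes for partners of CEACAM proteins 24 were tested and edgeR called none in siHOXB-AS3 against siNT, where 1 had an unadjusted p under 0.05, beside 12.2% of all genes, and DESeq2 called 0. Their median was 0.13, with TNFRSF10B at 0.52 (SE 0.170) and EGFR at 0.32 (SE 0.138) above and TGFBR1 at -0.49 (SE 0.323) and LGALS4 at -0.48 (SE 0.242) below. Of 32 other adhesion molecules with immunoglobulin domains 23 were tested and edgeR called none in siHOXB-AS3 against siNT, where 7 had an unadjusted p under 0.05, beside the same 12.2%, and DESeq2 called 0. Their median was -0.13, between NECTIN4 at -0.90 (SE 0.314) and ICAM1 at 0.77 (SE 0.317), with VSIG10 at -0.59 and BCAM at 0.63. Over the promoter factors and these 4 lists the medians in siHOXB-AS3 against siNT lay between -0.22 and 0.13.

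In siHOXA-AS3 against siNT no gene of any list was called by edgeR, as for all genes, and DESeq2 called none of them either. CEACAM5, CEACAM6 and CEACAM7 are products of mature colonocytes. Of 28 genes of such cells 14 were tested, with a median of -0.35 in siHOXB-AS3 against siNT, and 9 of the 14 had a negative value. Of the 14, 7 had an unadjusted p under 0.05, beside 12.2% of all genes, and DESeq2 called 2, beside 347 of 13034 genes. The median was -0.22 without siNT replicate 1 and -0.13 without siHOXB-AS3 replicate 2. Against siHOXA-AS3, 12 of the 14 had a negative value. PLAC8 was the 1 gene of the list that edgeR called in siHOXB-AS3 against siNT, higher in siHOXB-AS3, beside 0.0307% of all genes called higher, with 96.8 and 109 FPKM in siNT and 359 and 327 FPKM in siHOXB-AS3 (log2 fold change 1.73, SE 0.152, edgeR adjusted p = 0.0492). It was also the 1 that edgeR called in siHOXB-AS3 against siHOXA-AS3, again higher, beside 0.629% of all genes. DESeq2 called 4 of the list there, beside 792 of 13034 genes. This list, like the others, was chosen with earlier results of these data known, so its calls are descriptions only. PHGR1 had -1.22 (SE 0.364, edgeR adjusted p = 0.244) and CDHR5, a brush border cadherin, -0.86 (SE 0.355, edgeR adjusted p = 0.394), while MUC13 had 0.47 (SE 0.159, edgeR adjusted p = 0.294).

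The labelled cell type was checked against marker genes. Of 10 colon epithelium markers 8 had a mean of at least 1 FPKM, among them EPCAM at 153 to 296 FPKM and KRT20 at 218 to 306 FPKM, while CDX2 (at most 0.34 FPKM) and CDX1 (at most 0.06 FPKM) were near 0. The summed epithelial level was 4578 to 4932 FPKM in siNT, 3884 to 5831 in siHOXA-AS3 and 4272 to 4319 in siHOXB-AS3. Of the 9 epithelial markers tested, 7 had a negative log2 fold change in siHOXB-AS3 against siNT, with a median of -0.46 over the 9. None was called by edgeR, and 2 had an unadjusted p under 0.05, beside 12.2% of all genes. DESeq2 called 1, beside 347 of 13034 genes. EPCAM was the 1 epithelial marker that edgeR called in siHOXB-AS3 against siHOXA-AS3. It was lower in siHOXB-AS3, beside 0.936% of all genes called lower. DESeq2 called 2 of the epithelial markers there, beside 792 of 13034 genes. The part of these lower epithelial markers in the lower CEACAM5 and CEACAM6 was not tested. Of 10 leukocyte markers, LYZ, which intestinal epithelium also makes, had 718 to 1172 FPKM and CD68 9.74 to 15.7 FPKM. Together the leukocyte markers summed to 857 to 971 FPKM in siNT, 1075 to 1183 in siHOXA-AS3 and 728 to 780 in siHOXB-AS3. CD14 had 0.42 to 1.21 FPKM, and the defining markers PTPRC and CD3E had at most 0.1 FPKM. The 6 stromal markers summed to at most 0.15 FPKM and the 5 endothelial ones to at most 0.13 FPKM in any library.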

How the data were processed

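RNA-seq of polyA RNA (Lexogen SENSE mRNA kit) was analysed for siNT, siHOXA-AS3 and siHOXB-AS3, with 2 libraries each. RSEM and RefSeq genes were used by the authors for quantification, and their processing notes name build hg19. Not given in the sources used here are the aligner, the RSEM version and how strand was handled. The authors deposited expected counts (estimated fragments per gene, not normalized), TPM (scaled to one sum per library) and FPKM (scaled by gene length and library size), with a gene length per library. The labels give a dose of 10 nM and a column kit for RNA, and the methods of the study give another dose and reagent.

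The 5 CEACAM genes and all gene lists were chosen with earlier results of these data known. After rounding, expected counts went into edgeR 4.0.16 (R 4.3.3), with filterByExpr (minimum count 10), TMM and the robust quasi-likelihood test in a single fit to the 6 libraries, and Benjamini-Hochberg adjusted p over the 13034 genes tested. The calling step was tested on simulated data. DESeq2 1.42.0, limma 3.58.1 on log2(FPKM + 0.1) and log2(FPKM + 1), other normalizations and filters, unrounded counts, only the groups compared, a replicate block, a loess trend on GC content (96.5% of the genes tested had a value) and each library left out were the alternatives. A fit without 1 library takes the spread of the lone library left in that group from the other groups. The crossed replicate block was added after seeing the data. Same-numbered libraries did not deviate together (Pearson r of -0.347, -0.139 and 0.15 between groups), so replicate numbers were not used as pairs.

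Genes named are the 5 members, the 2 targeted lncRNAs, other CEACAM genes with at least 1 count, the 2 highest and 2 lowest of each list by log2 fold change in siHOXB-AS3 against siNT among genes that averaged at least 1 FPKM, the 3 genes most like each member, and the nearest tested gene on each side. USF1, USF2, SP1, the cell type markers, and CEACAM4 and CEACAM21 with no counts were named beside these. Rows were matched to symbols by Entrez ID, for 25945 of 27434 rows, and 627 rows join several genes. Of the list genes, PIGY and ITGB1 lie in such joined rows. Promoters came from RefSeq (GRCh38.p14) and transcripts from GENCODE 29, and sequences were aligned with Biopython. No pair of libraries was identical (smallest chi-square per degree of freedom 6.9).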

Additional observations from a re-analysis of the deposited data

Results flagged for a closer look

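CEACAM6 had both siHOXA-AS3 libraries above and both siHOXB-AS3 libraries below the siNT libraries in FPKM. Its log2 fold change in siHOXB-AS3 against siHOXA-AS3 was -1.56 (SE 0.147), of which the siHOXA-AS3 side was 0.097 and the siHOXB-AS3 side -1.46. CEACAM1 showed the same arrangement at a smaller size, with -0.34 (SE 0.149), from 0.26 on the siHOXA-AS3 side and -0.079 on the siHOXB-AS3 side. For CEACAM1 the arrangement rests on small gaps, since in TMM-scaled CPM siNT replicate 2 and siHOXB-AS3 replicate 2 both stood at 166. In edgeR's fit the difference between the knockdowns was called for CEACAM6 and not for CEACAM1, and no p is given because the family was chosen on the siHOXB-AS3 libraries.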

How the results depend on the processing

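In siHOXA-AS3 against siNT, edgeR called 0 genes in the reported fit, 51 were called with DESeq2, 24 with no filter, 1 with limma on log2(FPKM + 0.1) and 433 with a GC trend removed. In siHOXB-AS3 against siNT the reported 8 became 347 with DESeq2, 265 with no filter, 2995 with only the groups compared and 1630 with a GC trend removed. In siHOXB-AS3 against siHOXA-AS3 the reported 204 became 792, 706, 2 and 3170 under the same 4 settings, and 93 and 76 with limma on log2(FPKM + 0.1) and log2(FPKM + 1). With the replicate number as a block, 0, 0 and 10 genes and 0, 0 and 0 members were called in the 3 comparisons. With a crossed pairing, chosen after seeing the data, the counts were 14, 225 and 758 genes. Leaving out 1 library gave 0 to 4031, 0 to 3035 and 0 to 5027 genes, and 0 to 2, 0 to 4 and 0 to 4 members. In siHOXB-AS3 against siHOXA-AS3, 0 members were called with only the groups compared and 4 with a GC trend removed. In siHOXA-AS3 against siNT the log2 fold change turned sign with 1 library left out for CEACAM5 (from -0.13 to 0.029, positive without siHOXA-AS3 replicate 2), CEACAM7 (from -0.48 to 0.0031, positive without siNT replicate 2) and CEACAM19 (from -0.028 to 1.22, negative without siHOXA-AS3 replicate 1). List medians in siHOXB-AS3 against siNT that moved by over 1.5 times with 1 library left out were those of GPI anchor synthesis (0.21 without siNT replicate 2), other GPI-anchored proteins (-0.13 without siNT replicate 1 or siHOXB-AS3 replicate 2), promoter factors (-0.046 without siHOXB-AS3 replicate 1 and -0.047 without replicate 2), other adhesion molecules (-0.20 without siHOXB-AS3 replicate 1 and -0.0059 without replicate 2) and mature colonocyte genes, and the GPI-anchored proteins stood at -0.078 with a mean FPKM of at least 1. The cause was not tested. Depth limits CEACAM7, with 12 to 41 expected counts, and CEACAM19, with 39 to 160.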
